A study of Mus musculus with 6 samples.

Results

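Genes for 10 molecules that hold endothelial cells together and let leukocytes attach to them were read in RNA-seq libraries of cardiac fibroblasts from infarcted mouse hearts. They were taken from the deposited table of 34745 genes by their listed names, and each of the 10 names matched 1 row. They are 5 junction molecules (*Pecam1*, *Cdh5*, *Esam*, *Cldn5* and *Jam2*), 3 immunoglobulin-family ligands of leukocyte integrins (*Icam1*, *Icam2* and *Vcam1*) and 2 selectins (*Sele* and *Selp*). The cells came from the left ventricle on Day 7 after myocardial infarction (MI), which both groups underwent by permanent coronary ligation, in mice of 8 to 10 weeks. The KDM5B-knockout (KO) mice lack a stretch of *Kdm5b* that holds the JmjC domain, made with CRISPR/Cas9 on a C57BL/6 background with no promoter or Cre named that would limit it to fibroblasts, and the wild-type (WT) mice were littermates. There were 3 KO-labelled libraries and 3 labelled WT. Nothing in the labels says whether the 3 came from separate animals or pools, so p-values measure the spread between these libraries. The study's methods name no sort for a surface marker.

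An endothelial layer is sealed by homophilic contacts between neighbouring cells. VE-cadherin (*Cdh5*) builds the adherens junction, claudin-5 (*Cldn5*) the tight junction, and PECAM-1, ESAM and JAM-B (*Jam2*) line the border at which leukocytes cross. Leukocytes first roll on E-selectin and P-selectin, then arrest when their integrins bind ICAM-1, ICAM-2 and VCAM-1. Some of these genes mark endothelial cells closely, as *Cdh5* does, while *Icam1* and *Vcam1* are also made by fibroblasts and other stromal cells, *Pecam1* and *Icam2* by leukocytes and platelets, and *Selp* by platelets.

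Between 12025403 and 15329427 fragments or reads were counted on genes per library, so that a count of 0 allows up to 3 counts, or 0.245 CPM in the smallest library, where CPM is the count scaled by the normalized library total. *Kdm5b* itself had a mean of 103 CPM in the KO-labelled libraries and 120.0 CPM in the WT-labelled ones (log2 fold change -0.22, adjusted p = 0.0574 from edgeR). This total includes exons outside the deleted stretch and is no call at that adjusted p, so the groups are named by their labels throughout. Fibroblast markers were high in all 6 libraries, with a summed level of 42970 to 50440 CPM in the KO-labelled libraries and 59810 to 63450 CPM in the WT-labelled ones. Endothelial markers other than the 10 genes were also counted in both, at 2362 to 3127 CPM and 906 to 915 CPM. Most of the sum in the WT-labelled libraries was *Eng* (269, 265 and 271 CPM) and *Ptprb* (292, 287 and 293 CPM). These 2 markers had log2 fold changes of -0.02 and 0.08 (adjusted p = 0.773 and 0.216 from edgeR). In such bulk libraries, fewer cells of a type and less RNA per cell cannot be told apart.

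The 10 genes did not move together. In the KO-labelled libraries, 5 of them rose (*Pecam1*, *Cdh5*, *Esam*, *Icam2* and *Sele*), 2 fell (*Icam1* and *Vcam1*), and *Cldn5*, *Jam2* and *Selp* did not pass the test. The rises spanned 4.95-fold to 23.5-fold, whereas both falls were to 0.744 and 0.760 of the WT level. All 10 genes passed the expression filter. The test was edgeR's quasi-likelihood test with Benjamini-Hochberg adjustment over all 14084 genes tested, and a call is an adjusted p under 0.05. Of all genes tested, 30.2% were called, 17.7% as higher and 12.5% as lower, and their median log2 fold change was -0.02 against 1.17 over the 10 genes. In 7 of the 10 the libraries of the 2 labels did not overlap, 5 with higher and 2 with lower values under the label KO, which held for 47.0% of all genes tested, 24.7% higher and 22.4% lower. With a fold change above 2 required as well, the 5 rises and none of the falls remained called, against 5.99% and 0.270% of all genes tested.

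**Figure D1:**
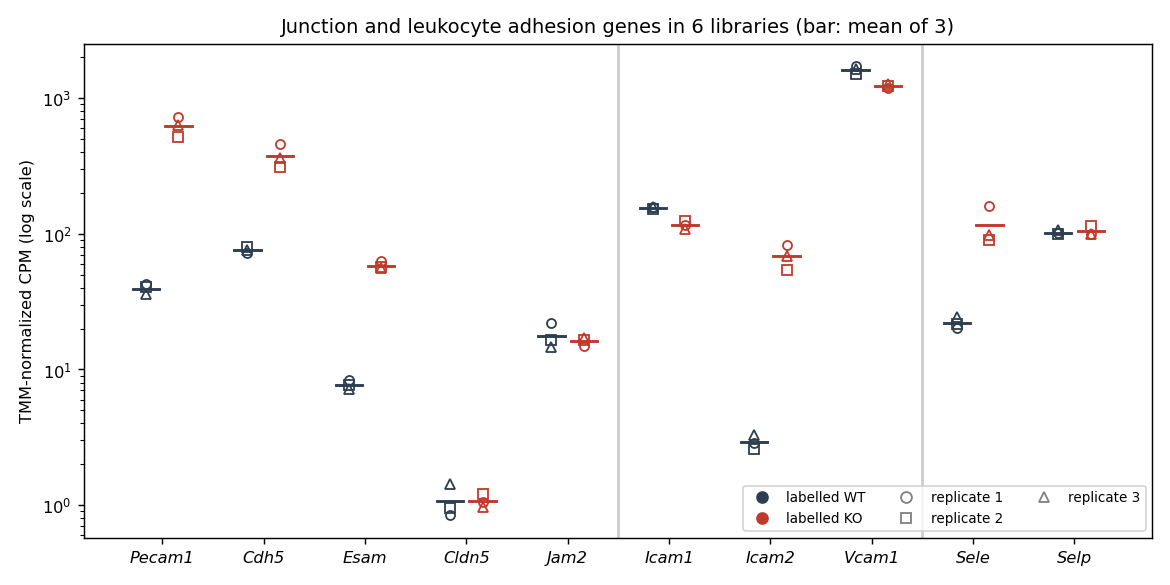
TMM-normalized CPM (log axis) of the 10 genes in each library, with points for the 3 replicates of each label and bars for their means. Points labelled KO lie above those labelled WT for *Pecam1*, *Cdh5*, *Esam*, *Icam2* and *Sele*, below them for *Icam1* and *Vcam1*, and among them for *Cldn5*, *Jam2* and *Selp*.

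*Pecam1* encodes PECAM-1 or CD31, an adhesion molecule of the endothelial border that leukocytes engage as they cross. The gene (ENSMUSG00000020717, chromosome 11 from 106654217 to 106750628 in mm10, minus strand) had 719.9, 514 and 633 CPM in the KO-labelled libraries and 42.4, 40.3 and 35.7 CPM in the WT-labelled ones. The labels were far apart, and KO replicate 2 was the lowest of its label. The log2 fold change was 3.98 with a 95% interval from 3.67 to 4.28 (adjusted p = 1.94e-06 from edgeR).

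*Cdh5*, the adherens junction cadherin (ENSMUSG00000031871, chromosome 8 from 104101625 to 104144502, plus strand), had 459.5, 309 and 360.3 CPM in the KO-labelled libraries and 72.0, 79.8 and 75.9 CPM in the WT-labelled ones. It was the junction gene with the highest level in the WT-labelled libraries and had a smaller fold change than *Pecam1*. Its log2 fold change was 2.31 (95% interval 2.00 to 2.62, adjusted p = 1.61e-05 from edgeR). *Esam*, an immunoglobulin-family molecule of endothelial tight junctions (ENSMUSG00000001946, chromosome 9 from 37528078 to 37538319, plus strand), had 62.6, 56.7 and 55.6 CPM against 8.40, 7.64 and 7.18 CPM. Its libraries were the closest to each other within the label KO among the 5 genes that rose, with an SD of 3.79 CPM around a mean of 58.3 CPM (n = 3). The log2 fold change was 2.91 (95% interval 2.70 to 3.12, adjusted p = 1.94e-06 from edgeR).

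*Cldn5*, the main claudin of the endothelial tight junction (ENSMUSG00000041378, chromosome 16 from 18776847 to 18778260, plus strand), was counted few times in all 6 libraries. It had 13, 16 and 15 counts in the KO-labelled libraries and 12, 14 and 20 counts in the WT-labelled ones, about 1.08 and 1.07 CPM on average. The labels overlapped, and the log2 fold change was 0.00 with a 95% interval from -0.71 to 0.72 (adjusted p = 0.993 from edgeR). A rise of the size seen in *Cdh5* lies well outside this interval, and changes within its bounds were not detectable at this depth. The FPKM of *Cldn5* was 0.770 ± 0.0806 (SD, n = 3) in the KO-labelled libraries, where that of *Cdh5* was 95.5 ± 19.9.

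*Jam2*, which encodes the junctional adhesion molecule JAM-B (ENSMUSG00000053062, chromosome 16 from 84774123 to 84825928, plus strand), had 14.8, 16.4 and 17.0 CPM in the KO-labelled libraries and 22.1, 16.6 and 14.6 CPM in the WT-labelled ones. WT replicate 1 lay above the other 5 libraries, which overlapped. The log2 fold change was -0.14 (95% interval -0.50 to 0.21, adjusted p = 0.526 from edgeR), and without WT replicate 1 it was 0.04. Hence 3 of the 5 junction genes rose and *Cldn5* and *Jam2* did not pass the test.

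Among the integrin ligands, *Icam2* had the largest change of the 10 genes. ICAM-2 is a constitutive endothelial ligand of the leukocyte integrin LFA-1. The gene (ENSMUSG00000001029, chromosome 11 from 106377656 to 106388075, minus strand) had 83.1, 54.2 and 68.5 CPM in the KO-labelled libraries and 2.87, 2.59 and 3.27 CPM in the WT-labelled ones. The lowest library labelled KO stood well above the highest labelled WT, where the gene was counted only 38 to 46 times. The log2 fold change was 4.56 (95% interval 4.12 to 4.99, adjusted p = 3.99e-06 from edgeR), or 23.5-fold. On the log2(FPKM + 1) scale, which compresses low values, it was 3.60.

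*Icam1* encodes the inducible ligand of the same integrin and of Mac-1. It lies on chromosome 9 from 21015960 to 21028797 (plus strand, ENSMUSG00000037405) and had 116, 123 and 109 CPM in the KO-labelled libraries and 158, 151 and 158 CPM in the WT-labelled ones. All 3 KO-labelled libraries were lower, and the log2 fold change was -0.43 (95% interval -0.56 to -0.29, adjusted p = 0.00112 from edgeR). *Vcam1*, which encodes the ligand of the integrin VLA-4, was the most abundant of the 10 genes. It lies on chromosome 3 from 116109949 to 116129688 (minus strand, ENSMUSG00000027962) and had 1188, 1226 and 1264 CPM in the KO-labelled libraries and 1708, 1497 and 1632 CPM in the WT-labelled ones. It fell by 0.40 on the log2 scale (95% interval -0.52 to -0.27, adjusted p = 0.0013 from edgeR).

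The falls of *Icam1* and *Vcam1* were of the size seen in fibroblast markers, which had a median of -0.41 on the log2 scale. Of these markers, 14 of 16 were lower and 0 higher, beside 12.5% and 17.7% of all genes tested. Falls of that size were also seen in markers of other cells, with 7 of 13 macrophage markers (median -0.38), 4 of 7 mural cell markers (median -0.42) and 7 of 10 cardiomyocyte markers (median -0.41) lower, against 2, 1 and 0 higher. These counts stand beside the same 12.5% lower and 17.7% higher of all genes tested. Without WT replicate 2 the number of mural cell markers lower was 2. Fibroblast markers ranged from -0.48 for *Tcf21* to -0.12 for *Vim*, mural cell markers from -0.43 for *Cspg4* to 0.84 for *Abcc9*, and cardiomyocyte markers from -0.45 for *Myh6* to -0.22 for *Myl3*. The part of these cells in the values of *Icam1* and *Vcam1* was not tested. With the libraries scaled so that the median ratio of the fibroblast markers was 1, which moved the median of all genes to 0.38, neither fall was called, with *Icam1* at -0.033 (adjusted p = 0.724) and *Vcam1* at -0.0015 (adjusted p = 0.987 from edgeR). The number lower was then also 0 on each of these marker lists.

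**Figure D2:**
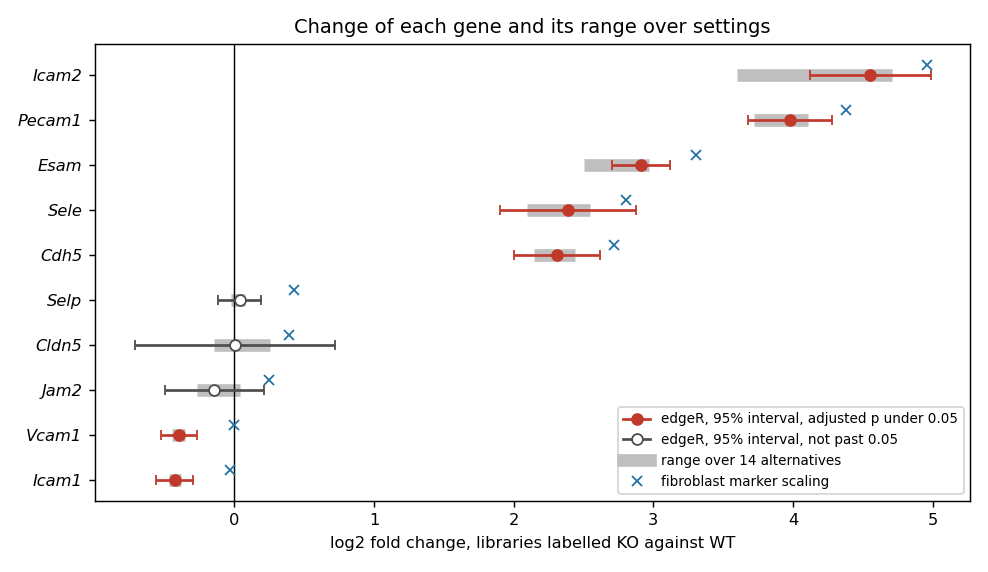
Log2 fold change of the 10 genes, KO-labelled libraries against WT, with 95% intervals from edgeR, the range over 14 alternative settings (grey bar) and the value with fibroblast marker scaling (cross). The fitted values of the 5 rises lie above 2 in all settings, although the interval of *Sele* reaches 1.90, whereas the crosses of *Icam1* and *Vcam1* lie near 0.

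Of the selectins, *Sele* rose and *Selp* did not pass the test. *Sele* encodes E-selectin, which cytokines induce on endothelial cells. The gene (ENSMUSG00000026582, chromosome 1 from 164048234 to 164057677, plus strand) had 159, 90.2 and 97.5 CPM in the KO-labelled libraries and 20.2, 21.6 and 24.3 CPM in the WT-labelled ones. KO replicate 1 was well above the other 2 of its label, and all 3 were above the WT-labelled libraries. The log2 fold change was 2.39 (95% interval 1.90 to 2.88, adjusted p = 0.000135 from edgeR) and 2.10 without KO replicate 1.

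*Selp* encodes P-selectin, which endothelial cells and platelets store in granules. It lies 57587 bases from *Sele* on chromosome 1, from 164115264 to 164150026 on the same strand (ENSMUSG00000026580), and had 99.9, 114 and 99.8 CPM in the KO-labelled libraries and 101, 99.4 and 106 CPM in the WT-labelled ones. The labels overlapped, and the log2 fold change was 0.04 with a narrow 95% interval from -0.12 to 0.19 (adjusted p = 0.698 from edgeR). With fibroblast marker scaling, which moves all genes up, it was 0.43 (adjusted p = 0.00093), the single setting run in which *Selp* was called. *Selp* overlaps *Gm16587* and *Gm16548* on the other strand, which had at most 48 counts in any library where *Selp* had at least 1220.

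RefSeq promoter windows (GRCm38.p6, from 250 bases before to 50 after the annotated start) were found for 4 of the 10 genes, *Sele*, *Selp*, *Icam1* and *Cldn5*. The windows of the neighbours *Sele* and *Selp*, of which 1 rose, and of *Icam1*, which fell, are given 5′ to 3′ on the plus strand, with the letters TATAAA in capitals where they occur.
Sele, chr1:164047984-164048283: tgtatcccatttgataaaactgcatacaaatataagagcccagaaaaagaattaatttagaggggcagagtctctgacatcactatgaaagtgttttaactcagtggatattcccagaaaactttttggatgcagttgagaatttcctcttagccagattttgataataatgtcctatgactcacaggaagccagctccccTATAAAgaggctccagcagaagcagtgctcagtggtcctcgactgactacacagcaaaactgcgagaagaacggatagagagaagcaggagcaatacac
Selp, chr1:164115014-164115313: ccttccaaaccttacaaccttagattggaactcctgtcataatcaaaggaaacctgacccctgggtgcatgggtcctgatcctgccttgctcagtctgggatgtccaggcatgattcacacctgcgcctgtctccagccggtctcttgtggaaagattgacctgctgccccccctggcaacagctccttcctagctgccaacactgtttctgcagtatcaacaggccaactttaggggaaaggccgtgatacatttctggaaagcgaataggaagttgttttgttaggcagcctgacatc
Icam1, chr9:21015690-21015989: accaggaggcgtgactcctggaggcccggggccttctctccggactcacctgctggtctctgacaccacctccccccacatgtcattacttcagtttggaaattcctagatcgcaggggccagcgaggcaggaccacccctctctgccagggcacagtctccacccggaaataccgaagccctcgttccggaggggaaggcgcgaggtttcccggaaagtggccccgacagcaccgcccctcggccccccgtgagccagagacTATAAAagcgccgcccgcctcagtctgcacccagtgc
TATAAA, searched on both strands, occurred once in *Sele*, at 49 bases before the start, and once in *Icam1*, at base 14 counted from the RefSeq start at 21015940. The annotated starts of *Icam1* differ, and the same letters lie 7 bases before the start in the deposited table and 32 bases before that in GENCODE. It occurred neither in *Selp* nor in *Cldn5*, and in 13.6% of all 32851 windows. The core letters GGAA of ETS-factor sites, counted on both strands, occurred 3 times in *Sele*, 8 times in *Selp*, 7 times in *Icam1* and 0 times in *Cldn5*, where 96.0% of all windows hold them at least once. Patterns of the NF-kB type, GGG followed after 2 free bases by TTTCC or after 3 free bases by TTCC (both strands, each match of the first being one of the second), matched none of the 4 windows and 1.63% and 5.56% of all windows. Stretches a base away from these patterns were not counted, such as tggaaattcc in *Icam1* and ggatattccc in *Sele*. The lack of a match thus covers the exact patterns only. A pair of GGAA cores with 5 free bases between them, as in paired ETS sites, also matched none of the 4 and 2.53% of all, and the E-box CANNTG matched all 4 and 72.3% of all windows. These matches describe letters in a window and not bound sites.

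Levels between genes were compared per length, as the deposited FPKM. In the WT-labelled libraries, *Vcam1* was highest with a mean of 164.9 FPKM, followed by *Icam1* (60.6), *Cdh5* (18.8), *Selp* (16.5), *Sele* (7.48), *Pecam1* (4.35), *Jam2* (2.74), *Esam* (2.30), *Icam2* (0.952) and *Cldn5* (0.749). Of the neighbours in this order, *Jam2* and *Esam*, and *Icam2* and *Cldn5*, overlapped in their libraries. In the KO-labelled libraries, *Vcam1* was again first with 128 FPKM, but *Cdh5* (95.5) and *Pecam1* (70.2), which overlapped, came before *Icam1* (46.2). *Icam1* overlapped with *Sele* (40.2), and *Icam2* (23.0) with *Esam* (17.7), which overlapped with *Selp* (17.3). *Jam2* (2.54) and *Cldn5* (0.770) stood apart at the end. The lowest and highest genes were thus the same under both labels, while *Icam2* moved by FPKM from next to *Cldn5* to the level of *Esam* and *Selp*.

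Places between them depended on the gene length. The length behind the FPKM was 2.78 times the longest coding transcript for *Vcam1*, 2.61 times for *Pecam1* and 2.35 times for *Icam2*, but 0.998 times for *Cdh5*. Per kilobase of that transcript, an alternative added after seeing the data, *Vcam1* stayed first and *Cldn5* last under both labels, and 5 of the 10 genes kept their place under the label KO and 4 under WT. *Pecam1* then stood above *Cdh5* without overlap in the KO-labelled libraries (181 against 94.2 CPM per kilobase), and *Icam2* (53.5) overlapped with *Icam1* (45.8). In the WT-labelled ones *Selp* (29.7) stood above *Cdh5* (19.0), *Pecam1* (11.5) above *Sele* (7.58), and *Icam2* (2.27) above *Cldn5* (0.757), each without overlap.

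**Figure D3:**
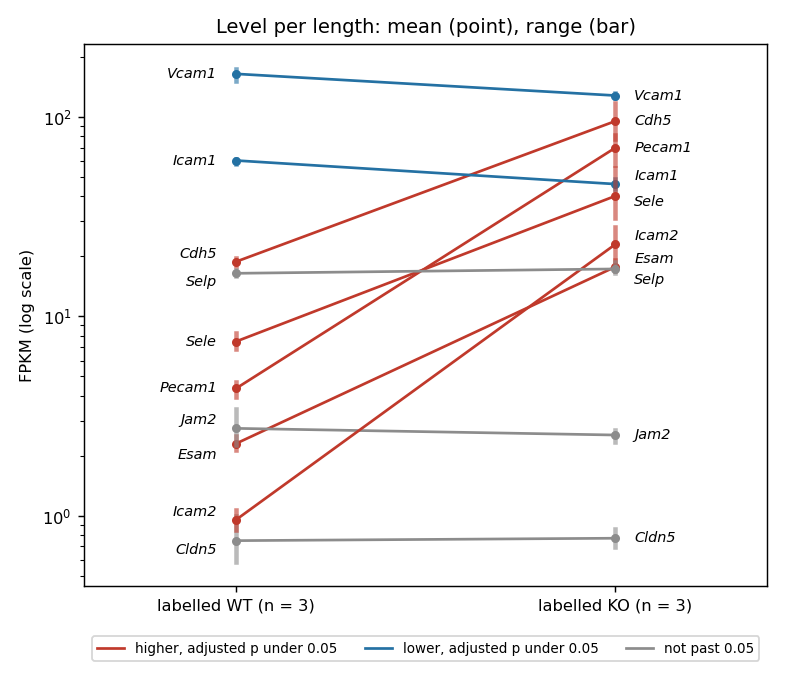
Mean FPKM (log axis, point) and range over 3 libraries (bar) of each gene under the labels WT and KO. *Vcam1* is highest and *Cldn5* lowest under both labels, and the lines of *Pecam1* and *Icam2* cross those of *Selp*, *Sele* or *Jam2*.

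To see which of the 10 genes differed from each other in their change, 8 ratios of CPM were taken within each library, and the labels were compared with an exact two-sided permutation test, which cannot go below p = 0.1 for 3 libraries against 3. The *Pecam1*-to-*Cdh5* log2 ratio was 0.73 ± 0.08 (SD, n = 3) in the KO-labelled libraries and -0.95 ± 0.17 in the WT-labelled ones, a difference of 1.68 without overlap (exact p = 0.1, adjusted p = 0.114 over 8 ratios). *Icam2* against *Icam1* differed most, by 4.95 on the log2 scale, and *Pecam1* against *Cldn5* by 3.93. The *Sele*-to-*Selp* log2 ratio was higher by 2.31, although neither this nor any other ratio could pass the threshold in this design. *Jam2* against *Esam* and *Cdh5* against *Icam2* differed by -3.03 and -2.24, and *Cdh5* against *Esam* by -0.62, with all 3 KO-labelled libraries beyond the WT-labelled ones in each. The *Vcam1*-to-*Icam1* log2 ratio was 3.40 ± 0.12 against 3.37 ± 0.06, and this difference of 0.03 lay within the spread of the libraries (exact permutation p = 0.7).

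The 10 genes were also set against 29 other endothelial markers of the same library, such as the VEGF receptor gene *Kdr* and *Tie1*, by subtracting the mean log2 CPM of these markers. Of those 29, 23 were higher and 1 lower (*Cd36*, named after its value was seen) in the KO-labelled libraries, beside 17.7% and 12.5% of all genes tested. The 29 markers ranged from -0.82 for *Sox17* (adjusted p = 0.0946 from edgeR) to 5.36 for *Ushbp1*, and their median was 2.54 on the log2 scale. Relative to them, *Pecam1*, *Icam2* and *Esam* were higher in the KO-labelled libraries by 1.83, 2.39 and 0.77, and *Cldn5*, *Jam2*, *Icam1*, *Vcam1* and *Selp* lower by a log2 difference of -2.10, -2.26, -2.56, -2.53 and -2.10. Because the markers themselves rose, the median of all genes tested was -2.15 on this scale, and the values of *Cldn5*, *Jam2* and *Selp* lay near it. In these 8 genes and in *Cdh5* the labels did not overlap (exact two-sided permutation p = 0.1, adjusted p = 0.111 over the 10 genes, n = 3), which held for 97.3% of all genes tested. The smallest differences were those of *Cdh5* and *Sele*, which were at 3.00 and 1.27 in the KO-labelled libraries against 2.85 and 1.07 in the WT-labelled ones. The difference for *Sele* was 0.21 with overlap (exact permutation p = 0.5), and that for *Cdh5* was 0.15 without overlap (exact permutation p = 0.1).

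Set against 16 fibroblast markers instead, a comparison added after seeing the data, *Vcam1* was at 1.17, 1.05 and 1.20 in the KO-labelled libraries and at 1.25, 1.05 and 1.17 in the WT-labelled ones. *Icam1* was at -2.19, -2.27 and -2.33 against -2.18, -2.26 and -2.20. The differences of -0.01 and -0.05 lay within the spread of the libraries (exact permutation p = 1 and 0.4, n = 3 per label). *Selp* and *Cldn5* were each 0.42 higher on this scale, on which the median of all genes tested was 0.37 because the markers fell. *Selp* did not overlap between labels (exact permutation p = 0.1, adjusted p = 0.167 over the 10 genes), which held for 65.5% of all genes tested.

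**Figure D4:**
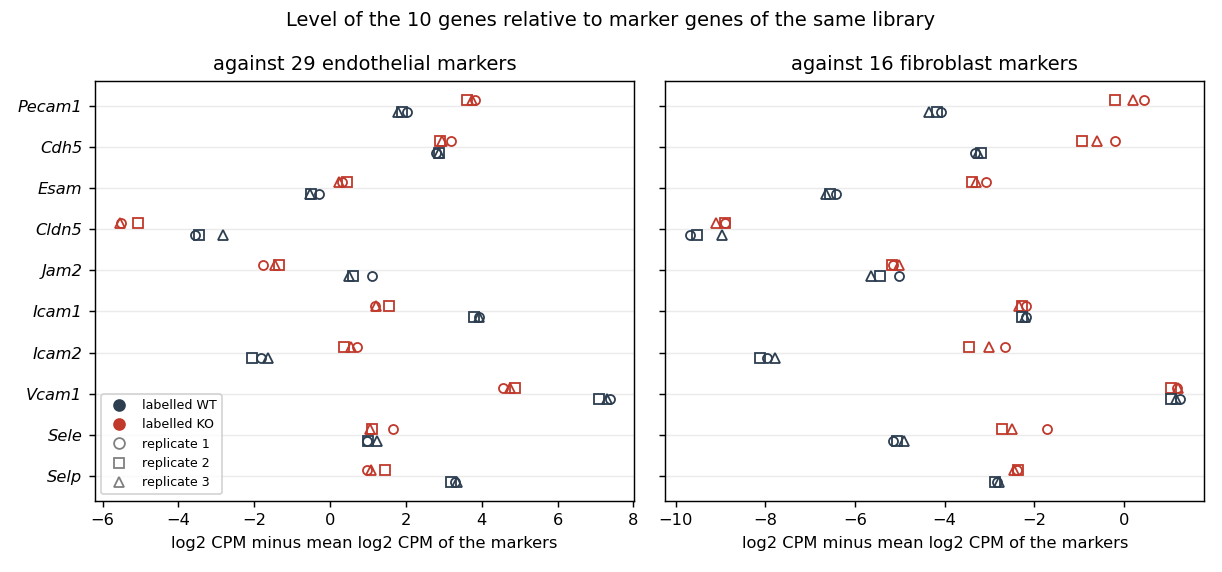
Log2 CPM of each gene minus the mean log2 CPM of 29 endothelial markers (left) or 16 fibroblast markers (right) of the same library, with 1 point per library. On the left *Cdh5* and *Sele* of both labels lie close together, and on the right *Vcam1* and *Icam1* do.

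Within the label KO, the genes that rose were alike in the order of their libraries. KO replicate 1 was highest in all 5 of them, and KO replicate 2 was lowest in *Pecam1*, *Cdh5*, *Icam2* and *Sele*, whereas KO replicate 3 was lowest in *Esam*. The mean log2 CPM of the 29 endothelial markers was likewise highest in KO replicate 1 (5.66) and lowest in KO replicate 2 (5.39), against 3.37 to 3.44 in the WT-labelled libraries. Across 6 libraries, the 3 genes with the profile nearest to *Cdh5* among 11289 compared were *Itga6*, *Adcy4* and *Ppp1r16b*, with distances of 0.149, 0.175 and 0.180 between centred log2(CPM + 1) profiles. For *Icam1* they were *Vnn1*, *Bloc1s4* and *Slc7a3*, at 0.0345, 0.0512 and 0.0516.

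Of 13 genes for binding partners of these molecules on leukocytes 12 could be tested, 7 were lower and 1 higher, beside 12.5% and 17.7% of all genes tested, and the median log2 fold change was -0.26. Cardiomyocyte markers, with 7 of 10 lower, and fibroblast markers, with 14 of 16 lower, had medians of -0.41 each. *Itgal* and *Itgb2*, the chains of LFA-1 that bind ICAM-1 and ICAM-2, had log2 fold changes of -0.47 and -0.34 (adjusted p = 0.00361 and 0.0177 from edgeR). *Itga4* and *Itgb1*, the chains of VLA-4 that bind VCAM-1, were at -0.22 and -0.20 (adjusted p = 0.0244 and 0.0062). *Itgb1* had 1139 to 1352 CPM over the libraries, where *Itga4* had 49.8 to 61.1 CPM. The part of leukocytes in the value of *Itgb1* was not tested. *Selplg*, which encodes the P-selectin ligand of leukocytes, had 7.37, 9.15 and 7.93 CPM in the KO-labelled libraries and 13.3, 10.8 and 13.2 CPM in the WT-labelled ones (log2 fold change -0.61, adjusted p = 0.0117). *Itgam*, the Mac-1 chain, had the lowest value of the list, -0.61, but overlapped between labels (adjusted p = 0.171). The gene that was higher was *Itgb7*, which pairs with the *Itga4* chain and rose from 6, 2 and 6 counts to 96, 61 and 72 counts (log2 fold change 4.08, adjusted p = 0.000237). With fibroblast marker scaling 0 of these genes were lower and 4 higher.

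Leukocyte and platelet markers are given beside these values because such cells also carry several of the 10 molecules. Of 13 macrophage markers tested, 7 were lower and 2 higher (*Cd68* and *Mertk*), beside 12.5% and 17.7% of all genes tested, from -0.60 for the complement gene *C1qb* to 1.38 for *Cd68*, and their summed level was 1296 to 1325 CPM in the KO-labelled libraries and 1584 to 1698 CPM in the WT-labelled ones. Of 11 platelet and megakaryocyte markers 6 could be tested and 4 were higher (2 with limma), beside the same 17.7%. The summed level of the 11 was 215 to 343 CPM against 36.5 to 39.0 CPM. Most of this sum was the integrin gene *Itgb3* (293.8, 181 and 217 CPM against 29.2, 26.7 and 27.4), which endothelial cells also express. *Pf4*, which encodes the platelet chemokine, rose from 3.36, 5.60 and 4.05 CPM to 38.9, 27.2 and 29.3 CPM (log2 fold change 2.87, adjusted p = 4.31e-05 from edgeR). *Gp1ba*, a chain of the platelet receptor for von Willebrand factor, had 20, 11 and 15 counts in the KO-labelled libraries and 0 in each of the WT-labelled ones (adjusted p = 0.00305), and *Itga2b*, the platelet integrin chain, was also higher (log2 fold change 0.93, adjusted p = 0.023). *Ppbp* and *Gp1bb* had log2 fold changes of 0.23 and -1.18 (adjusted p = 0.677 and 0.0723). *Gp9* had 4, 4 and 4 counts against 0, 0 and 1, too few to be tested, and *Gp6* had 0 counts in every library. The part of these cells in the values of the 10 genes was not tested.

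Of 32 other junction genes 30 could be tested, 8 were higher and 5 lower, beside 17.7% and 12.5% of all genes tested, and their median log2 fold change was -0.03, near that of all genes. *Ccm2l*, a partner of the endothelial HEG1 receptor, rose most (12.8, 11.9 and 10.96 CPM against 0.980, 0.955 and 0.284, log2 fold change 3.98, adjusted p = 4.44e-05 from edgeR), and *Cldn1* had the lowest value (-0.87, adjusted p = 0.146). The number lower was 2 without WT replicate 1 or 2 and 3 with DESeq2 or limma. Fibroblast marker scaling made 19 higher and 0 lower, so a direction for this list depends on the scaling. Of 18 further vascular adhesion and mucin genes 15 could be tested, with 7 higher, 3 lower and a median of 0.15. The number lower was 0 with DESeq2 or without WT replicate 2 and 1 without WT replicate 3 or any 1 KO library, and fibroblast marker scaling made 13 higher and 0 lower. The sialomucin gene *Cd34*, whose product can carry selectin ligands, rose most on this list (537, 347 and 448 CPM against 15.4, 15.9 and 16.2, log2 fold change 4.81, adjusted p = 1.94e-06), and *Chst2*, a sulfotransferase gene of selectin ligands, was lowest (-0.31, adjusted p = 0.0464). *Cd34* and *Emcn* are also on the list of other endothelial markers, and *Cd99l2* is also among the other junction genes. The counts of these lists are therefore not separate.

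Because *Sele*, *Icam1* and *Vcam1* are known targets of TNF and NF-kB, 29 genes of that response were read as a list. All could be tested, 8 were higher and 7 lower, beside 17.7% and 12.5% of all genes tested, and the list's median was -0.03 on the log2 scale. *Csf2* had the highest value (2.00, adjusted p = 0.0196 from edgeR) and *Tnfaip3* the lowest (-0.52, adjusted p = 0.0809). Without WT replicate 1 the number higher was 4 and without WT replicate 2 it was 5, while fibroblast marker scaling made 16 higher and 0 lower. The 3 known targets among the 10 genes themselves were split, with *Sele* higher and *Icam1* and *Vcam1* lower.

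**Figure D5:**
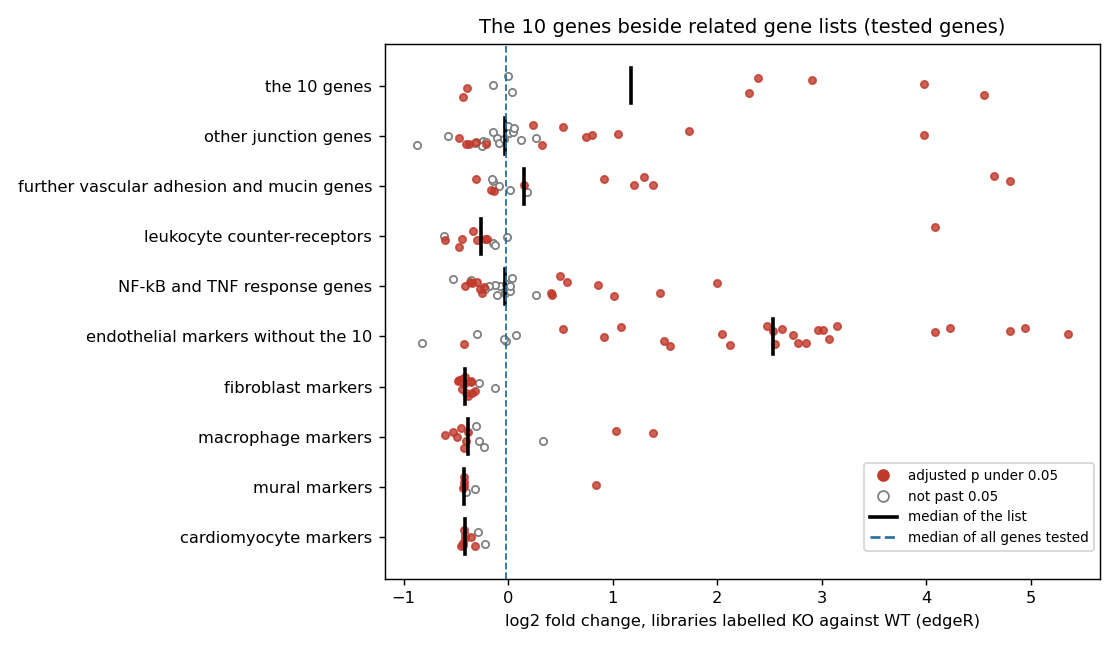
Log2 fold change (KO-labelled libraries against WT, edgeR) of the tested genes of each list, filled where the adjusted p was under 0.05, with the median of each list (bar) and of all genes tested (dashed line). The median of the 10 genes is 1.17, that of other endothelial markers 2.54, and those of fibroblast, macrophage, mural cell and cardiomyocyte markers lie between -0.42 and -0.38.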

How the data were processed

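Poly(A)-enriched RNA was sequenced in pairs, and HISAT2 placed the reads on mm10. The authors deposited counts per gene and FPKM per library. Per the labels, strands were kept apart in the library kit, edgeR and GRCm38.p4 were also used, and the counting tool, annotation release and strand setting are not given in the sources used here. The deposited counts are whole numbers without normalization. The deposited FPKM are those counts per gene length and library total (the implied length varied by at most 0.078% between libraries).

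Labels were compared on the counts in R 4.3.3 by edgeR 4.0.16 (expression filter filterByExpr, TMM, glmQLFit, glmQLFTest, Benjamini-Hochberg adjustment, two-sided), with all 6 libraries and no covariate, after the script was tested on simulated data. Totals per library limit precision as given above, and intervals cover these libraries only. Ratios used counts + 0.5. Alternatives used DESeq2 1.42.0 and limma 3.58.1, other filters and scalings, a replicate block, and each library left out. Replicates of a label differed beyond sampling noise. The 10 genes, the lists and the rule for named genes (all 10, *Kdm5b*, binding partners, the nearest profiles, defining markers, and the highest and lowest tested gene of each list) were chosen with earlier results of these data known. Sequences came from RefSeq (GRCm38.p6). A protein comparison was planned and not run. Other experiments of the study were not analysed here.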

Additional observations from a re-analysis of the deposited data

How the results depend on the processing

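The calls of *Pecam1*, *Cdh5*, *Esam*, *Icam2* and *Sele* as higher held under all 15 alternatives, with adjusted p of at most 0.00143, and those of *Icam1* and *Vcam1* as lower under 14. Fibroblast marker scaling, which moves the median of all genes to 0.38, gave -0.033 for *Icam1*, -0.0015 for *Vcam1*, 0.25 for *Jam2* and 0.43 for *Selp*, left 0 of the 10 genes lower and moved their median log2 fold change from 1.17 to 1.57. A fold change above 2 in addition also left 0 of the 2 lower. Leaving out a library moved *Cldn5* between -0.14 and 0.25, *Jam2* between -0.27 and 0.04 and *Sele* between 2.10 and 2.55. With the replicate number as a block, *Pecam1* was at 3.97, *Sele* at 2.35 and *Icam1* at -0.43, and no call of the 10 genes changed. Same-numbered libraries did not deviate together (correlations -0.03, 0.01 and 0.05 over 9816 genes). No pairing by number was thus seen, although 3 libraries per label cannot exclude it. The split of all calls was 58.6% higher, 65.8% with library size, 49.4% with the upper quartile and 99.4% with fibroblast marker scaling.

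Relative to fibroblast in place of endothelial markers, *Cldn5*, *Jam2* and *Selp* were at 0.42, 0.26 and 0.42 instead of -2.10, -2.26 and -2.10. Counts over lists moved more. With fibroblast marker scaling the numbers higher rose from 8 to 19 for other junction genes, 7 to 13 for vascular adhesion genes and 8 to 16 for TNF response genes, and the numbers lower went to 0 for all lists run. Of other junction genes 5 were lower in the main analysis, 8 with the upper quartile, 3 with library size, DESeq2 or limma and 2 to 3 without any 1 of KO replicates 1 and 3 or the 3 WT libraries. Of vascular adhesion genes 3 were lower, 1 with library size or limma 0 with DESeq2 or without WT replicate 2, and 1 without WT replicate 3 or any 1 KO library. Of mural markers 4 were lower and 2 without WT replicate 2, and of platelet markers 4 were higher and 2 with limma. A fold change above 2 left 3 junction and 3 TNF response genes higher. Per kilobase of the longest coding transcript in place of FPKM, 5 of the 10 genes kept their place in the order of levels under the label KO and 4 under WT. Depth limits *Cldn5*, counted 12 to 20 times per library. Of 31-base stretches in transcripts of the 10 genes, at most 3.5% (*Icam1*) also occur in transcripts of other genes.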

Other observations

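Markers of lymphatic endothelium, a list that does not hold any of the 10 genes, split in the KO-labelled libraries. *Lyve1*, the hyaluronan receptor gene that macrophages also express, had 113, 89.0 and 91.8 CPM against 1.96, 1.02 and 1.35 CPM (log2 fold change 6.08, adjusted p = 1.94e-06 from edgeR), and the VEGF-C receptor gene *Flt4* was also higher. *Pdpn*, which fibroblasts express too, was lower (log2 fold change -0.43), *Prox1*, the transcription factor that defines lymphatic identity, was at -0.03 (adjusted p = 0.924), and *Ccl21a* had 0 counts in every library.

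Lymphocyte markers were near 0, with *Cd3e* at 0 counts in every library and 1 of 10 markers high enough to be tested and not called (*Trac*, at -0.59 on the log2 scale with an adjusted p = 0.0561 from edgeR). Of 10 neutrophil markers 5 could be tested, and 2 were higher and 1 lower, beside 17.7% and 12.5% of all genes tested. The lower gene was *Mmp8* (log2 fold change -0.55, adjusted p = 0.0177 from edgeR). *S100a8* rose from 1.12, 0.205 and 0.427 CPM to 6.06, 3.98 and 4.06 CPM (log2 fold change 2.99, adjusted p = 0.00174 from edgeR).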
